A study of Mus musculus with 11 samples.

Results

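Akr1c18, Pik3c2g, Thrb, Inha and Runx2 are the 5 genes grouped here as markers of the X-zone and the fetal zone of the mouse adrenal cortex. Their members were the probes whose RefSeq accession in the deposited scanner files belongs to one of these genes, 13 of the 41174 probes and 5 of the 17427 named genes on the array. Akr1c18 had 1 probe, Pik3c2g and Inha had 2 each, and Thrb and Runx2 had 4 each. Gene expression was measured on single-colour Agilent arrays in adrenal cells of mouse embryos aged E17.5-18.5, in days of gestation, sorted by flow cytometry for enhanced green fluorescent protein, with the RNA of a different mouse on each array. The study set 4 mice of the genotype Star-/-, all labelled male, against 7 mice of the genotype Star+/+, 3 labelled male and 4 female. What drove the fluorescent protein, which cells of the gland carry it and which part of Star was deleted are not given in the sources used here.

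In the mouse, the fetal cortex is the first steroid-making tissue of the adrenal gland, and the definitive cortex that replaces it grows inward from beneath the capsule. The inner remnant of the fetal cortex persists after birth as the X-zone, which disappears at puberty in males and in the first pregnancy in females. Akr1c18, which encodes the enzyme that inactivates progesterone, and Pik3c2g, which encodes a class II phosphoinositide 3-kinase, are known as X-zone markers. Thrb encodes the thyroid hormone receptor beta, through which thyroid hormone acts on the X-zone, Inha encodes the alpha subunit of the hormone inhibin, and Runx2 encodes a transcription factor best known from bone.

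The arrays lay on 3 slides, with wild-type arrays 1 and 2 and knockout arrays 1 and 2 on slide 1, wild-type array 3 and knockout arrays 3 and 4 on slide 2, and wild-type arrays 4 to 7 on slide 3. With slide as a term in the model, a difference between genotypes therefore rests on slides 1 and 2, and slide 3 adds only to the estimate of the spread. Each array had between 19072 and 26418 probes well above background, and precision is limited by how few arrays there are. On slide 2 the wild type is represented by array 3 alone, which had the dimmest 75th percentile of signal, 115, and correlated least with the rest, at a median of 0.83. That array is labelled female and knockout arrays 3 and 4 male, so every difference within slide 2 is also one between the sexes. The targeted gene, Star, stood at 5.87, 7.04 and 7.86 on the wild-type arrays of slides 1 and 2, at 7.49, 3.84, 3.21 and 4.95 on those of slide 3, and at 1.58, 2.59, 2.05 and 3.27 on knockout arrays 1 to 4. These levels, like all below, are log2 signals relative to the 75th percentile of the array, and levels of different probes are not compared. Star differed by −4.70 ± 0.93 (SE, 4 against 3 arrays; limma, adjusted p = 0.0558), and its probe remained above background on every knockout array. A second Star probe, A_52_P165654, also above background on all 11 arrays, ranged from 2.36 to 7.18 in the wild type and from 0.29 to 1.42 in the knockout, without overlap, and differed by −5.38 ± 0.91 (SE; limma with each probe tested separately, adjusted p = 0.0367). Wild-type array 4, although labelled female, had 4 Y-linked transcripts above background, so that 1 array did not match its sex label. Xist was not above background on it, but neither was it on wild-type arrays 5 and 6, also labelled female. Its absence therefore does not bear on the label.

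Detection differed between the 5 genes. The probe with the highest mean signal was well above background on all 11 arrays for Inha and Runx2, on 10 for Thrb, on 9 for Akr1c18 and on 3 for Pik3c2g. This Pik3c2g probe was thus at background on 6 of the 7 wild-type arrays, and by both probes the gene was at background on 4, where the label of X-zone marker could not be checked by it. Of the 4 genes that could be tested, Akr1c18 passed an adjusted p of 0.05 as lower in the knockout arrays, against 0.231% of all 20744 genes and unnamed probes tested, while 0.834% passed in either direction. Akr1c18 and Inha had an unadjusted p under 0.05, as did 18.5% of all tested. The median difference of the 4 genes was −2.06, against −0.16 over all tested.

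Akr1c18, the enzyme gene of the group, fell in the knockout arrays. On slide 1 its probe, A_51_P256170, stood at 3.32 and 0.13 in wild-type arrays 1 and 2 and at −4.14 and −3.82 in knockout arrays 1 and 2. On slide 2 it stood at 2.80 in wild-type array 3, at −2.42 in knockout array 3 and at −5.00, not above background, in knockout array 4. All 4 knockout levels were below all 3 wild-type levels of these slides, as was the case for 11.4% of genes tested. On slide 3, wild-type arrays 4 to 7 gave −0.43, −3.43, −1.55 and −4.85, the last not above background. The wild-type levels of slide 3 thus reached down into the knockout range, and over all slides the genotypes overlapped, as they did for each of the 13 probes. Of all genes tested, 3.22% lay lower and 4.11% higher in the knockout arrays without overlap.

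The fitted difference of Akr1c18 was −6.03 ± 1.15 on the log2 scale (SE, 4 against 3 arrays), with an adjusted p of 0.0495 in limma. Its probe was above background on 3 of the 4 knockout arrays and the fit includes the background signal of the other. With normexp background correction the difference was −4.29 (limma, adjusted p = 0.000688). It was −5.70 within slide 1, where all 4 arrays are labelled male, and −6.52 within slide 2, and these values did not differ detectably (interaction of genotype and slide, −0.81, limma adjusted p = 0.815). Within slide 2 the wild-type array is labelled female and the knockout arrays male. In these bulk sorts, fewer cells of a type and less RNA per cell cannot be told apart. The call lay at the edge of the threshold: 19 of 30 alternatives took the adjusted p above 0.05, while the difference was negative in all 30, between −6.91 and −3.27. Leaving out wild-type array 1, 2, 3, 5 or 6 gave an adjusted p of 0.123, 0.0742, 0.469, 0.0639 or 0.0605, and leaving out knockout array 1, 2, 3 or 4 gave 0.178, 0.101, 0.111 or 0.128. Without wild-type array 4 it was 0.0281 and without wild-type array 7 it was 0.0482. The difference itself moved most without wild-type array 1, to −5.31, and without wild-type array 2, to −6.91.

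The sequence before the start of Akr1c18 is shown because this gene passed the test. It comes from RefSeq on the assembly GRCm38.p6 and covers the 250 bases before the transcription start, chr13:4150647-4150896 on the minus strand, read 5′ to 3′ toward the gene, with a TATA sequence in capitals.
Akr1c18: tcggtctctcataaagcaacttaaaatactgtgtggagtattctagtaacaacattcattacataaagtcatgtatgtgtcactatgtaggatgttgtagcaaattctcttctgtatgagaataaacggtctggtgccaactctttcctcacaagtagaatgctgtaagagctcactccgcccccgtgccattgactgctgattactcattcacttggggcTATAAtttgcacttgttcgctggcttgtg
The letters TATAA began 29 bases before the start, and 22.8% of 32817 promoter windows of this length held them on either strand. Searched in the same way, on both strands, AAGGTCA, the recognition sequence of the adrenal factor NR5A1, was found in 4.08% of windows, and AGGTCA, the nuclear receptor half-site within it, in 14.0%. TGACGTCA, the cyclic AMP response element, was found in 1.55%, TGTGGT, known for RUNX factors, in 14.0%, and AGATAA, known for GATA factors, in 9.99%. None of these 5 was found in the Akr1c18 window, which says only that these letters are not in it.

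Akr1c18 lies in a family of related aldo-keto reductase genes, and whether its probe also binds transcripts of the others was not tested. Of 8 other genes of the family 6 were tested, and 0 passed, 1 having an unadjusted p under 0.05 (limma). That gene was Akr1cl, with levels of 2.62 ± 1.40 (SD, n = 7) in wild-type and 0.71 ± 0.67 (SD, n = 4) in knockout arrays and a difference of −2.96 ± 0.73 (SE; adjusted p = 0.0957). Akr1c12 differed by −0.18 ± 0.74 (adjusted p = 0.918), Akr1c14 by 0.80 ± 1.01 (adjusted p = 0.698) and Akr1c19 by 0.47 ± 1.07 (adjusted p = 0.845). The median of the 6 was 0.23.

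Pik3c2g, the kinase gene, gave little signal. Its brightest probe, A_51_P191077, was above background at −1.79 in wild-type array 7, at −3.36 in knockout array 2 and at −2.26 in knockout array 4, and the other 8 arrays lay between −6.60 and −4.72, not above background. The 3 arrays with signal belonged to 3 different slides and both genotypes. The difference of 1.34 therefore rests mostly on background signals and was not among the tests. With dim probes kept, its adjusted p was 0.503 (limma).

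The second Pik3c2g probe, A_52_P564413, was above background on 5 arrays, at −4.20 and −2.09 in wild-type arrays 1 and 3 and at −4.96, −4.53 and −3.03 in knockout arrays 1, 3 and 4. It differed by −0.97 ± 0.54 (SE; limma with each probe tested separately, adjusted p = 0.383), opposite in sign to the first probe, and the genotypes overlapped. Of 14 other genes of phosphoinositide kinases and phosphatases 13 were tested. None passed, 1 had an unadjusted p under 0.05, and the median was 0.03. Pik3cd, the catalytic subunit known from white blood cells, had 1.40 ± 1.23 (SD, n = 7) in wild-type and 3.57 ± 0.61 (SD, n = 4) in knockout arrays and a difference of 2.61 ± 0.80 (SE; adjusted p = 0.145). Mtm1, a phosphoinositide phosphatase, differed by 1.47 ± 0.66 (adjusted p = 0.271), and Pik3c3, the class III kinase, by −0.43 ± 0.54 (adjusted p = 0.697).

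Thrb, the receptor gene, was by its brightest probe lower in every knockout array than in the wild-type arrays of the same slides, but did not pass the test. Its brightest probe, A_52_P532559, stood at −0.50 and −0.96 in wild-type arrays 1 and 2 against −3.12 and −2.56 in knockout arrays 1 and 2. On slide 2 it stood at 0.06 in wild-type array 3 against −2.07 and −1.93 in knockout arrays 3 and 4. On slide 3 it stood at −0.75, −6.18, −2.08 and −1.17 in wild-type arrays 4 to 7. Array 5 alone was at background there, and array 6 lay within the knockout range. Over slides 1 and 2, all knockout levels lay below all wild-type levels, as for 11.4% of genes tested.

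The difference of Thrb was −2.09 ± 1.11 (SE, 4 against 3 arrays; limma, adjusted p = 0.345), with −2.10 within slide 1 and −2.06 within slide 2. With the arrays of slides 1 and 2 alone, the adjusted p was 0.0292 for the same difference, and without wild-type array 5 it was 0.0599. The name of this probe comes from the annotation of slides 2 and 3 only, in 7 of the 11 files. That also holds for A_52_P877015, which was above background on 4 arrays, at −4.21, −2.27 and −3.53 in wild-type arrays 1, 3 and 4 and at −4.88 in knockout array 1. It differed by −2.34 ± 0.88 (SE, limma with each probe tested separately, adjusted p = 0.226), again with all knockout levels below the wild-type levels of slides 1 and 2. By the brightest probe of each gene, 11.4% of genes tested had this pattern.

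The other Thrb probes, named in all files, were each above background on under 4 arrays. A_52_P265108 was above background on wild-type arrays 1 and 2 only, at −1.99 and −2.32. Fitted over slides 1 and 2 together, the knockout arrays were at least 3.10-fold lower. This bound puts each dim knockout signal at the lowest signal above background on its array, or keeps the signal where it was higher. It has support on slide 1 only, as every array of slide 2 was at background. Over all slides no bound above 1-fold could be given. A_51_P388835 was above background on 3 arrays, at −3.89 in wild-type array 2 and at −3.68 and −3.33 in knockout arrays 1 and 2, and differed by 0.21, with 0.71 within slide 1 and −0.55 within slide 2. It is the brightest of the probes named in all files, and with signal on 3 arrays, all of slide 1, it does not show whether Thrb differed. The fitted differences of the 4 probes did not share a sign.

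Of 18 other genes of thyroid hormone signalling 17 were tested and 0 passed, while 6 had an unadjusted p under 0.05 (limma) and the median was −0.01. Crym, which binds thyroid hormone in the cytosol, stood at 1.69 ± 0.93 (SD, n = 7) in wild-type and −0.41 ± 0.37 (SD, n = 4) in knockout arrays and differed by −2.20 ± 0.60 (SE; adjusted p = 0.118). Thrsp, a hormone-responsive gene of lipid synthesis, differed by −2.84 ± 0.78 (adjusted p = 0.119). Rxrb, a retinoid X receptor that pairs with thyroid hormone receptors, lay higher in the knockout, with a difference of 1.48 ± 0.42 (adjusted p = 0.122). Hr, a corepressor of the receptor, was above background on 0 of 11 arrays.

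**Figure D1:**
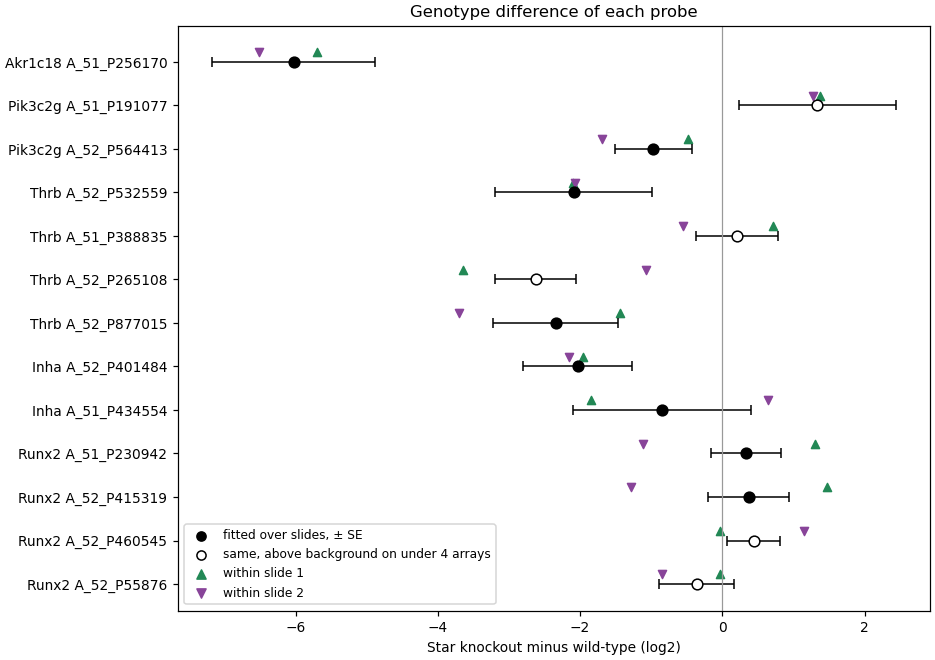
Difference of each of the 13 probes between knockout and wild-type arrays, on the log2 scale. Circles are the values fitted over slides with their SE, open where the probe was above background on under 4 arrays, and triangles are the values within slide 1 (upward) and slide 2 (downward); both triangles lie far below 0 for Akr1c18, at −5.70 and −6.52, and on opposite sides of 0 for the 2 brighter Runx2 probes.

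Inha, the hormone subunit gene, had lower knockout levels by its brighter probe on both slides without passing the test. Its brighter probe, A_52_P401484, was well above background on every array. It stood at 3.21 and 4.56 in wild-type arrays 1 and 2 against 1.79 and 2.07 in knockout arrays 1 and 2, and at 3.95 in wild-type array 3 against 1.24 and 2.35 in knockout arrays 3 and 4. On slide 3, wild-type arrays 4 to 7 gave 5.10, 2.27, 1.68 and 3.01. All knockout levels were below the wild-type levels of slides 1 and 2, as was the case for 11.4% of genes tested. Wild-type arrays 5 and 6 lay within the knockout range.

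The difference of Inha was −2.04 ± 0.76 (SE, 4 against 3 arrays), with a limma p of 0.0235 before and 0.209 after adjustment, and thus did not pass. It was −1.96 within slide 1 and −2.15 within slide 2. The second probe, A_51_P434554, was above background on 7 arrays, at −2.03, −0.33 and 0.43 in wild-type arrays 1, 2 and 4 and at −3.23, −2.81, −3.58 and −2.75 in knockout arrays 1 to 4. It differed by −0.85 ± 1.25 (SE; adjusted p = 0.757 with each probe tested separately), by −1.84 within slide 1 and by 0.65 within slide 2, where wild-type array 3 was at background. Over the 7 wild-type arrays, the 3 named genes with the level most like that of Inha, among 9450 above background on all 7, were Ccdc57 (Pearson r = 0.990, Spearman rho = 1), Wdr77 (r = 0.984, rho = 1) and Mrap (r = 0.982, rho = 0.96), the last encoding the accessory protein of the corticotropin receptor. Without the 2 arrays farthest from the Inha median, r was 0.994, 0.978 and 0.986 over 5 arrays. These are descriptions over arrays that share slides and the composition of the sort, with the genes picked as the highest of many.

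Inhibin is made of the alpha subunit and a beta subunit, and dimers of beta subunits alone form activin. Of 15 other genes of inhibin and activin signalling 14 were tested and 0 passed, while 2 had an unadjusted p under 0.05 (limma) and the median was −0.097. Inhbb, a beta subunit gene, stood at 1.93 ± 0.99 (SD, n = 7) in wild-type and −0.60 ± 0.50 (SD, n = 4) in knockout arrays and differed by −1.97 ± 0.53 (SE; adjusted p = 0.115). Inhba, the other beta subunit gene listed, differed by 2.49 ± 1.21 (adjusted p = 0.305), with 0.70 within slide 1 and 5.18 within slide 2. The receptor gene Acvr1c differed by −4.13 ± 1.45 (adjusted p = 0.188), and Fst, which encodes the activin-binding protein follistatin, by 1.33 ± 0.68 (adjusted p = 0.333).

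Runx2, the transcription factor gene, differed in opposite directions on the 2 slides that hold both genotypes. Its brightest probe, A_51_P230942, printed in 10 spots, stood at −1.76 and −1.88 in wild-type arrays 1 and 2 against −0.69 and −0.35 in knockout arrays 1 and 2. On slide 2 it stood at 0.40 in wild-type array 3 against −1.03 and −0.39 in knockout arrays 3 and 4, and on slide 3 at −1.12, −1.11, −1.13 and −1.71 in wild-type arrays 4 to 7. Both knockout arrays were higher on slide 1 and lower on slide 2, and wild-type array 3 stood above all other arrays. Over slides 1 and 2 the genotypes overlapped, while the knockout levels of 9.10% of genes tested all lay above the wild-type levels.

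The difference of Runx2 was 0.33 ± 0.49 (SE, 4 against 3 arrays; limma, adjusted p = 0.746), with 1.30 within slide 1 and −1.11 within slide 2, and 1.30 without wild-type array 3 (adjusted p = 0.518). The interaction of genotype and slide was −2.41 for this probe (limma over genes, adjusted p = 0.0513), and 8.02% of genes tested had an interaction past an adjusted p of 0.05, 31.9% past an unadjusted one. A_52_P415319, above background on all 11 arrays, showed the same signs. It stood at −3.44 and −3.42 in wild-type and −1.94 and −1.97 in knockout arrays of slide 1, and at −1.09 in wild-type and −2.73 and −2.02 in knockout arrays of slide 2. It differed by 0.37 ± 0.57 (SE; adjusted p = 0.766 with each probe tested separately) and had an interaction of −2.77 (limma over probes, adjusted p = 0.0407). Within-slide differences of opposite sign were found for 36.8% of genes tested.

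The identity of the Runx2 signal is limited by the annotation. Both bright probes carry the RefSeq accession of Runx2 only in the 4 files of slide 1, and the newer annotation of slides 2 and 3 does not name them so. Of the probes named in all files, A_52_P460545 was above background on knockout array 3 alone, at −4.14, and A_52_P55876 on none. The genes with levels most like those of A_51_P230942 over the 7 wild-type arrays were Sltm (r = 0.996, rho = 0.96), Tfb2m (r = 0.994, rho = 0.86) and Gtpbp3 (r = 0.992, rho = 0.89). Without the 2 arrays farthest from the median, wild-type array 3 among them, r was 0.972, 0.981 and 0.966 over 5 arrays.

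Of 13 other genes of RUNX partners and osteoblasts only 7 were tested, and 0 passed, 2 having an unadjusted p under 0.05 (limma). Cbfb, the partner subunit that RUNX factors need to bind DNA, was bright, with 5.59 ± 0.48 (SD, n = 7) in wild-type and 4.65 ± 0.22 (SD, n = 4) in knockout arrays and a difference of −0.93 ± 0.37 (SE; adjusted p = 0.230). Alpl, an alkaline phosphatase of bone and other tissues, differed by 1.20 ± 0.42 (adjusted p = 0.186), Runx1, a blood cell factor, by −0.48 ± 0.30 (adjusted p = 0.412) and the osteocalcin gene Bglap by 0.65 ± 0.85 (adjusted p = 0.712). The bone genes Ibsp, Dlx5, Msx2, Phex and Dmp1 were above background on under 4 arrays each. The list median was −0.27.

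Nuclear receptor half-sites before a listed start of 3 of the genes are shown. The reason is that the brightest probes of Thrb and Inha lay lower on both slides and that of Runx2 did not. Each line gives 26 bases around the match in capitals, from RefSeq on GRCm38.p6, read 5′ to 3′ toward the gene.
Thrb: gagagttgacAGGTCAagggaatagg
Inha: ggggattggcAGGTCAactttgaaga
Runx2: gagtactgtgAGGTCAcaaaccacat
The Thrb stretch is chr14:17660766-17660791 on the plus strand, before one of its 2 listed starts, with the match beginning 184 bases before that start. The Inha stretch is chr1:75507530-75507555 on the plus strand, with the match 69 bases before the start listed for it. Whether that is the first start of the gene was not checked. This window may therefore lie within the gene, and nothing is said of the sequence before another start. The Runx2 stretch is chr17:44814701-44814726 on the minus strand, with the match 89 bases before the start, and ACCACA, the reverse complement of TGTGGT, begins 80 bases before it. At 14.0% of all windows the half-site is common, it occurred before listed starts of genes of differing direction, and a match describes letters only. AAGGTCA and TGACGTCA were found in none of the 7 windows of the 5 genes, and Pik3c2g had TTATCT, the reverse complement of AGATAA, before one start and ACCACA before the other.

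Other genes of the fetal and the definitive cortex were set beside these 5. Of 9 fetal adrenal transcription factors tested, 1 fell. It was Nr0b1, the nuclear receptor DAX1, at −5.58 ± 0.89 (log2 difference with SE; limma, adjusted p = 0.0275), from 1.86 ± 1.84 (SD, n = 7) to −2.27 ± 1.23 (SD, n = 4). With sex as a further term it was −4.99 (limma, adjusted p = 0.109), and without wild-type array 3 it was −4.85. Leaving out wild-type array 1, 2 or 3 gave an adjusted p of 0.0791, 0.0827 or 0.340, and leaving out knockout array 1, 2, 3 or 4 gave 0.131, 0.0547, 0.0861 or 0.0745. Gata6 differed by −1.34 ± 0.51 (adjusted p = 0.217), Pknox1 by 1.09 ± 0.41 (adjusted p = 0.208) and Wt1 by 0.92 ± 0.65 (adjusted p = 0.467). The list median was −0.50.

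In the definitive cortex and steroid enzyme list, 10 genes were tested, 0 passed and 2 had an unadjusted p under 0.05 (limma), while the fitted differences of all 10 were negative and the median was −1.33. Over all genes tested, 57.0% had a negative difference. For Cyp11a1, which encodes the first enzyme of steroid synthesis, the plain mean over all arrays was 3.80 in the wild type and 3.98 in the knockout, and its fitted difference of −0.23 was −1.24 within slide 1 and 1.27 within slide 2. For Cyp17a1, another steroid enzyme gene, the plain means were −0.61 and −0.53 and the fitted difference −0.27; both genes are named after their values were seen. Hsd3b1, which makes progesterone, differed by −2.32 ± 0.78 (adjusted p = 0.174) and Srd5a1, a steroid reductase, by −1.51 ± 0.49 (adjusted p = 0.162). In the zona glomerulosa list, 1 of 7 genes tested fell, and the median was −2.37, or −3.35 without wild-type array 3. It was Axin2, a target of WNT signalling, with a difference of −2.86 ± 0.44 (SE; limma, adjusted p = 0.0262). With sex as a further term it was −2.54 (limma, adjusted p = 0.0944), and without wild-type array 3 it was −2.24. For Axin2, leaving out wild-type array 1 or 3 gave an adjusted p of 0.0820 or 0.227, and leaving out knockout array 1, 2, 3 or 4 gave 0.118, 0.0547, 0.0788 or 0.0753. Shh, the hedgehog ligand, was above background on 5 of 7 wild-type arrays and on no knockout array. Its knockout levels were at least 17.7-fold lower on slides 1 and 2 and at least 5.81-fold lower over all arrays, bounds that were not tested. The fitted difference of Shh, −5.70 ± 1.31 (SE; limma, adjusted p = 0.0819), includes the background signals of the knockout arrays. No test set these lists against the 5 genes or against each other.

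**Figure D2:**
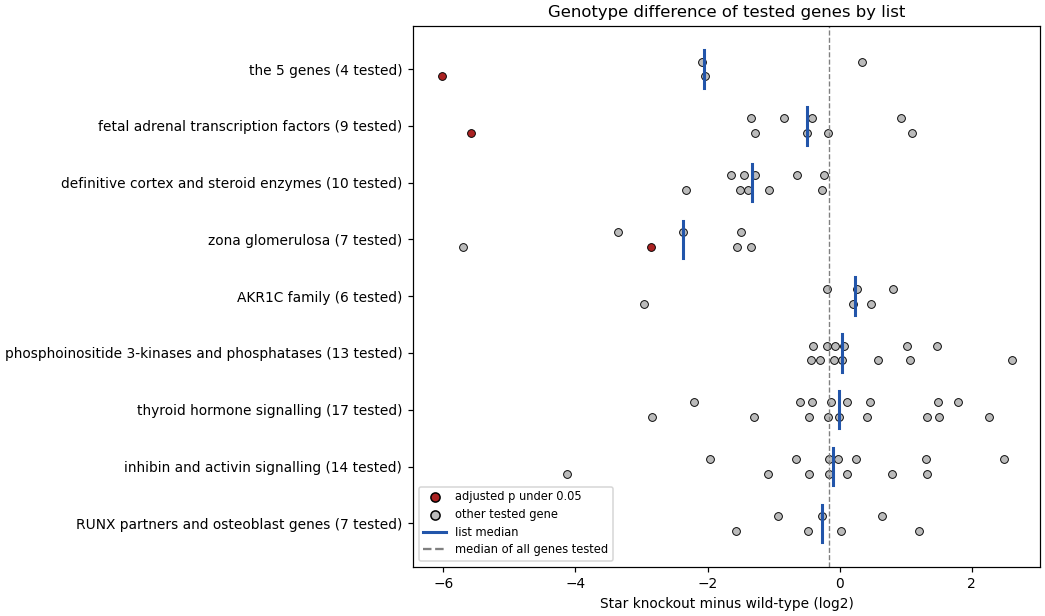
Difference of each tested gene between knockout and wild-type arrays, on the log2 scale, for the 5 genes and 8 lists of related genes. Red points passed an adjusted p of 0.05, blue bars are list medians and the dashed line is the median of all genes tested, −0.16; Akr1c18, Nr0b1 and Axin2 are the red points.

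Levels of cell type markers are given for the same arrays, and whether they varied along with Akr1c18, Thrb and Inha was not tested. Summed levels are the log2 of the added signals of a list, so the brightest markers weigh most. For 9 macrophage markers the sum lay between 8.77 and 10.2 in knockout arrays and between 5.42 and 7.71 in wild-type arrays, without overlap. It was 7.60, 7.56 and 5.92 in wild-type arrays 1 to 3. Lyz2, the brightest of the 9, had no value on knockout array 4, and the sum there, 8.77, is without it. The mean of each of the 9 was higher in the knockout, and the median fitted difference was 2.69, with 1.88 without wild-type array 3, the same as within slide 1, and 4.10 within slide 2. Lyz1, a lysozyme gene, rose by 4.48 ± 0.63 (SE; limma, adjusted p = 0.0190). Lyz1 differed by 6.48 within slide 2, by 3.15 if wild-type array 3 was left out and by 3.99 with sex as a further term (adjusted p = 0.0693). Leaving out wild-type array 1 or 3 gave it an adjusted p of 0.0549 or 0.0871, and leaving out knockout array 1, 3 or 4 gave 0.0696, 0.0565 or 0.0687. The summed level of 6 adrenocortical markers, Star among them, lay between 8.27 and 9.63 in wild-type arrays 1 to 3 and between 5.32 and 7.15 in knockout arrays. On slide 3 it was 8.86 in wild-type array 4 and 5.57, 5.89 and 6.57 in arrays 5 to 7. The median fitted difference of the 6 adrenocortical markers, with the targeted gene Star among them, was −1.18, with −1.65 within slide 1 and −0.18 within slide 2. The part of these markers in the differences of the 5 genes was not tested.

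Within the wild-type arrays the chromaffin and adrenocortical sums varied too. The summed level of 10 chromaffin markers, genes of the adrenal medulla, was 7.62, 8.89, 8.19 and 6.69 in wild-type arrays 1 to 4 and 10.97, 10.84 and 10.57 in arrays 5 to 7, against 6.45, 7.27, 6.89 and 2.51 in knockout arrays 1 to 4. Wild-type arrays 5 to 7, with the highest chromaffin and the lowest adrenocortical sums of their genotype, also held the 3 lowest wild-type levels of Akr1c18 and of Inha. Between 8 and 10 of the 10 chromaffin markers were above background on each of the 11 arrays, in cells labelled as adrenocortical. The summed level of capsule and stroma markers lay between 8.28 and 9.08 in wild-type arrays 1 to 3 and between 9.34 and 10.51 in knockout arrays, without overlap on slides 1 and 2, while over all wild-type arrays it reached from 8.11 to 10.9. Schwann cell precursor markers likewise lay between 2.25 and 3.13 in wild-type arrays 1 to 3 and between 4.02 and 4.26 in knockout arrays, against 1.61 to 5.72 over all wild-type arrays. The summed level of endothelial markers lay between 4.78 and 8.06 in wild-type and between 4.86 and 6.27 in knockout arrays, and that of erythroid markers between 6.06 and 7.55 and between 6.10 and 6.69. Gonadal markers, dim on most arrays, lay between 0.71 and 2.06 in wild-type and between 0.96 and 2.21 in knockout arrays. The summed level of bone genes and RUNX partners lay between 4.95 and 6.38 in wild-type and between 4.50 and 4.98 in knockout arrays. It was carried mostly by the RUNX partner Cbfb, alone between 4.86 and 6.35 in wild-type and between 4.40 and 4.88 in knockout arrays. This sum therefore says little of bone genes. What part any of these cells had in the levels of the 5 genes was not tested.

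**Figure D3:**
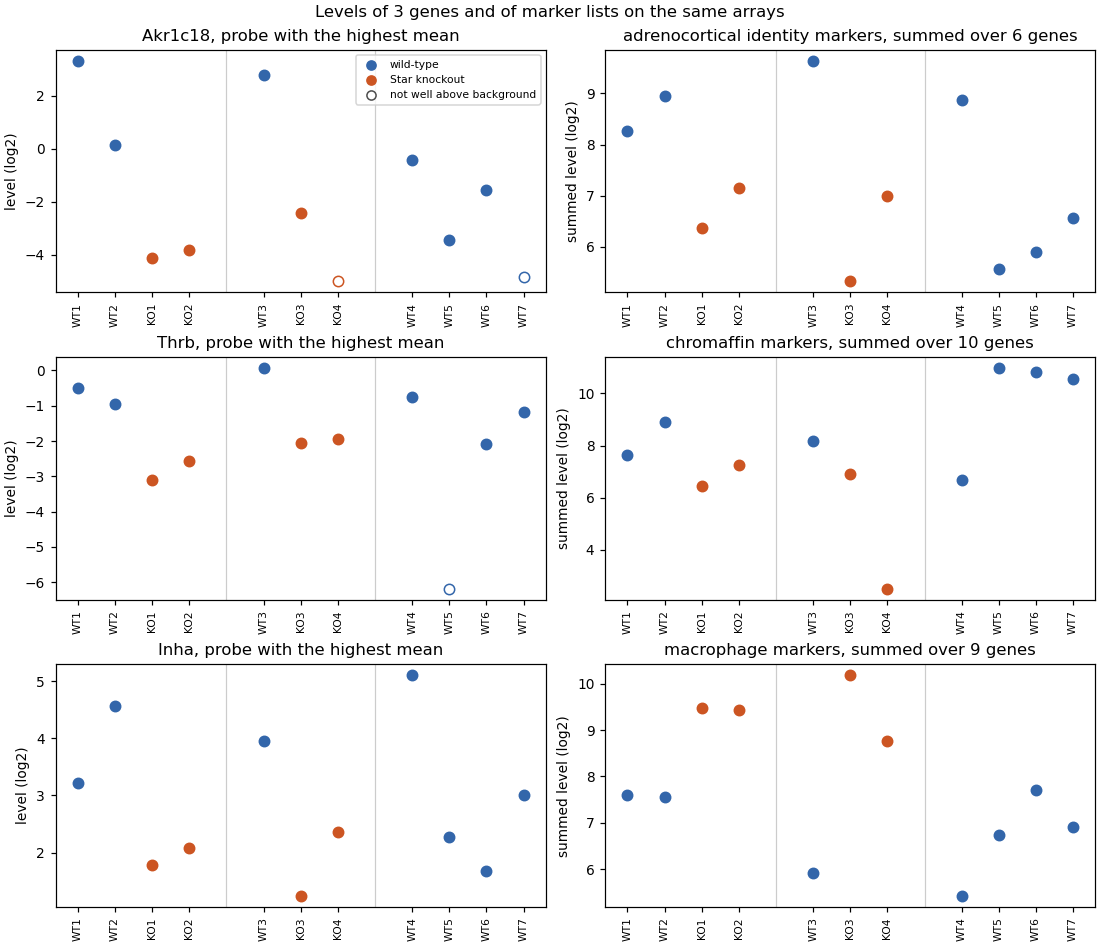
Levels of Akr1c18, Thrb and Inha (left) and summed levels of adrenocortical, chromaffin and macrophage markers (right) on the same 11 arrays, on the log2 scale, with slides separated by grey lines and open circles for signals not well above background. On slides 1 and 2 the 3 genes and the adrenocortical sum are lower in all knockout arrays and the macrophage sum is higher. The adrenocortical sum includes Star, the targeted gene. By the median level of its 6 markers, wild-type array 3 (1.27) lay between knockout arrays 3 (1.16) and 4 (1.72). On slide 3 wild-type arrays 5 to 7 have low adrenocortical sums, 5.57 to 6.57, and the highest chromaffin sums.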

How the data were processed

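The deposited scanner files hold spot intensity from Agilent Feature Extraction (versions 10.1.1.1 on slides 1 and 2 and 10.5.1.1 on slide 3, per the file headers; 10.5.1.1 alone per the submitters' processing notes), with background subtracted by that program. Log2 values in a deposited series table, made by the authors, served as an alternative. The RNA was amplified linearly before labelling, per the labels' protocols. Outlier spots (77 to 164 per array) were dropped, the log2 processed signals of a probe's spots were averaged, and the 75th percentile of each array over non-control probes was subtracted. Probes were named by accession through a RefSeq table of GRCm38.p6, newest annotation first: 25377 had a symbol and 15797 did not, and 92 were named differently by the slides' annotations.

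The probe with the highest mean stood for its gene, and genes with this probe above background on 4 or more of 11 arrays were tested. The test of genotype was that of limma (version 3.58.1, R 4.3.3; lmFit and eBayes) with slide as a further term and 7 residual degrees of freedom. It was two-sided at 0.05 after Benjamini-Hochberg adjustment across everything tested. P-values measure the spread between these arrays. The code was tested on simulated data. The members, lists and tests were chosen with earlier results of these data known. Named genes are the 5 genes, Star, up to 4 genes per list (per direction the 2 with the smallest p), and the 3 genes nearest in level to a member above background on all wild-type arrays; Hr, Ibsp, Dlx5, Msx2, Phex and Dmp1 were added for lying below the filter. Some list genes that this rule would name are counted in their lists but not reported by name here. Alternatives concerned slide, sex, replicate number, background, scaling, filter, probes, variance model, weights, outlier spots and leaving out arrays in turn; normexp, with an offset of 50, used median spot signals. Random blocks used statmod 1.5.0, reading of files pandas 2.3.3 and version 1.17.8 of the R package for large tables, and figures matplotlib 3.10.9.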

Additional observations from a re-analysis of the deposited data

Results flagged for a closer look

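Each genotype's levels were searched for an array standing apart from the others of its group, by Dixon's ratio at the 95% level, in 26 groups, of which chance marks about 1 in 20. Wild-type array 3 stood above the other wild-type arrays for 3 Runx2 probes, at 0.40 for A_51_P230942 (next highest −1.11), at −1.09 for A_52_P415319 (next −2.96) and at −5.12 for A_52_P460545, where it was not above background. Knockout array 3 stood below the other knockout arrays for A_52_P415319, at −2.73 (next −2.02). For Pik3c2g, A_51_P191077 was at −1.79 in wild-type array 7, where alone among the wild type it was above background, and for Thrb, A_52_P532559 was at −6.18 in wild-type array 5, the only array at background (next −2.08).

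The genotype difference was flagged as differing between slides for 3 probes, of which only A_52_P415319 passed an adjusted p of 0.05 (limma). By gene, 8.02% of those tested had an interaction past an adjusted p of 0.05 and 31.9% past an unadjusted one (limma). The value within slide 2 minus that within slide 1 was −2.77 for Runx2 probe A_52_P415319 (limma interaction over probes, adjusted p = 0.0407) and −2.41 for A_51_P230942 (adjusted p = 0.0503), with both knockout arrays higher on slide 1 and lower on slide 2. It was 2.49 for Inha probe A_51_P434554 (adjusted p = 0.160), whose wild-type value on slide 2 was at background. Slide 2 holds no other array of the wild type than array 3, which is labelled female, while the knockout arrays there are labelled male. Array, slide and sex therefore cannot be told apart.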

How the results depend on the processing

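Adjusted p-values here are from limma, and the cause of each change was not tested. For Akr1c18, negative in all 30 alternatives, the difference was −3.27 without the slide term (adjusted p = 0.258), −4.57 with slide as a random block (0.0962), −5.70 within slide 1 (0.139), −6.52 within slide 2 (0.0613), −5.12 with sex as a term (0.180), −5.32 with sex and without wild-type array 4 (0.0964), −3.38 over arrays labelled male (0.451), −5.90 with the percentile taken over probes above background on all arrays (0.0578), and −6.03 with dim probes kept (0.0584) or each probe tested separately (0.0524). Leaving out each array gave −6.91 to −5.31. For Pik3c2g, normexp gave −0.30 in place of 1.34, and leaving out each array 0.74 to 1.92. Thrb passed on slides 1 and 2 alone (−2.09, adjusted p = 0.0292) and with array weights (−2.27, 0.0427), and lay between −2.22 and −1.94 with each array left out. By the brightest of its probes named in all files, A_51_P388835, it was 0.21, an alternative chosen after seeing the data. The other such probe of Thrb, A_52_P265108, differed by −2.62, and both were above background on under 4 arrays. Inha passed with array weights (−2.03, 0.0214) and lay between −2.39 and −1.72 with each array left out. Runx2 was −1.11 within slide 2, passed with array weights (1.102, 0.0258), and lay between 0.0083 and 1.30 with each array left out. By the brightest of its probes named in all files, A_52_P55876, above background on no array, it was −0.36, an alternative also chosen after seeing the data. The other such probe of Runx2, A_52_P460545, gave 0.44, with signal above background on knockout array 3 alone. The estimated array weights ran from 0.12, for wild-type array 3, to 7.21.

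The count of genes past the threshold, 173, was 594 without the slide term, 469 with a random block, 0 within slide 1 and 0 within slide 2 (3860 and 7488 at an unadjusted p under 0.05), 533 on slides 1 and 2, 28 with sex, 78 with sex and without wild-type array 4, 267 over male arrays, 624 with normexp, 403 over genes above background on all 11 arrays, 260 with an intensity trend, 2634 with array weights, and 10 to 565 with each array left out. The percentile over probes above background on all arrays moved the median of all genes from −0.16 to −0.029. The filter on all 11 arrays leaves out Akr1c18, Thrb and Pik3c2g. Star, Nr0b1, Axin2 and Lyz1 kept their direction in 31 alternatives each, of which 12, 20, 20 and 22 passed.

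Same-numbered arrays were not established as pairs: their deviations correlated at 0.18, 0.22, −0.0077 and 0.18. With the replicate block in place of slide, 177 genes passed, Akr1c18 was −5.30 (adjusted p = 0.0362), Thrb −1.88 (0.0713), Inha −2.34 (0.0533), Runx2 0.47 (0.662), Pik3c2g 1.28 and Axin2 −2.60 (0.0656).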
